A study of Mus musculus with 11 samples.

Results

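The comparison described here set C2C12 cells that overexpressed an RNA made at the distal regulatory region (DRR) of the MyoD gene Myod1 against C2C12 cells that overexpressed GFP. Its members were the 2 RNA-seq libraries labelled pHAN_DRR1.2 and pHAN_GFP, out of 11 samples in the study, read through the authors' table for this pair. FPKM (fragments per kilobase of transcript, scaled to the fragments mapped in the library) was summed over the coding sequences of each gene symbol, and genes were kept where the mean of both libraries reached 1 FPKM. Of 20368 symbols 10699 passed. Rpl35 and Lars2 were set apart for reasons given below, which left 10697 genes tested.

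C2C12 is a mouse myoblast line of C3H origin that leaves the cell cycle and fuses into myotubes when serum is withdrawn. Both libraries were polyA RNA of myocytes 4 h into differentiation, in medium with 2% horse serum and a supplement of insulin, transferrin and selenium, and they differed by the overexpressed sequence alone as far as the labels say. The study dealt with MyoD and MyoG binding and with RNA made at enhancers, and its design text ties this experiment to MyoG. A companion experiment compared RNAi against the DRR RNA (DRRi) with RNAi against GFP (GFPi) at the same time point, and ChIP-seq lists gave MyoD peaks in proliferating myoblasts and MyoD and MyoG peaks in myotubes at 48 h. The table calls the first library by another name than the labels (Phan_eB), and it was taken as pHAN_DRR1.2 because the other column is named for GFP and the labels tie exactly these 2 samples to the table. Each group held 1 library, so no difference below has a replicate check and no test of a difference could be made. The sources used here do not say whether the cells were a pool or a clone, or which promoter drove the RNA. The DRR RNA lies outside the coding table, and its level was not analysed here.

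MyoD is a basic helix-loop-helix factor that commits cells to the muscle lineage and binds E-boxes, short sites of the form CANNTG. It switches on Myog, whose product MyoG, together with MEF2 factors, turns on the genes of the sarcomere, the contractile unit built of thick myosin filaments, thin actin filaments with troponin and tropomyosin, and the Z-discs and M-lines that anchor them. The DRR is a conserved element upstream of Myod1 that contributes to Myod1 transcription in differentiated muscle cells.

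The 2 libraries had like totals. Summed FPKM was 393547 in pHAN_DRR1.2 and 383311 in pHAN_GFP, and 10694 and 10674 genes reached 1 FPKM. The median log2 change of pHAN_DRR1.2 over pHAN_GFP, with a pseudocount of 1 FPKM, was 0.02, and 95% of genes lay between -0.33 and 0.44. Read depth is unknown, since the table holds no counts. The gene just over the level threshold was Degs2, with a mean of 1.00 FPKM, and the gene just under it was Megf6, with a mean of 0.999. Markers of the labelled cells were present in both libraries. All 7 myoblast markers were measured, with Myod1 at 65.6 against 68.9 FPKM, the muscle cadherin gene Cdh15 at 151 against 113 and the desmin gene Des at 577 against 460. Markers of endothelium and epithelium summed to under 1 FPKM, at 0.0818 and 0.412 FPKM in pHAN_DRR1.2. Of 4 blood markers Cd68 alone was measured (2.17 against 1.58), with Ptprc at 0 and 0.0164, and of 6 nerve and glia markers Tubb3 alone (91.0 against 51.0), with Rbfox3 and Snap25 listed at 0 in both libraries. The part of Cd68 or Tubb3 expressing cells in the results was not tested.

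In the pHAN_DRR1.2 library 17 of 44 contractile genes measured were 1.5-fold or more higher than in pHAN_GFP, led by the light chain gene Mylpf at 89.2 against 20.1 FPKM, and the lower genes included matrix genes and secreted signalling genes, among them Sfrp2 at 23.7 against 75.8. At 2-fold or more, 33 genes were higher (0.308% of those tested) and 8 were lower (0.0748%). At 1.5-fold, the threshold used below for gene groups, 147 were higher (1.37%) and 69 lower (0.645%). At q under 0.05, a value made from 1 library per group, the authors' deposited table called 109 of the tested genes higher (1.02%) and 62 lower (0.58%). It gave the same call for 32 of the 33 and for 6 of the 8 genes past 2-fold, and for 89 of the 147 and 40 of the 69 past 1.5-fold. The share of genes past 1.5-fold in either direction depended on level: it was 5.46% at a mean of 1 to 2 FPKM, 2.87% at 2 to 5, 1.75% at 5 to 20, 1.25% at 20 to 100 and 1.44% above 100. Of the 147 higher genes 53 belonged to at least 1 of 35 gene lists and 94 to none, and of the 69 lower genes 24 and 45.

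**Figure D1:**
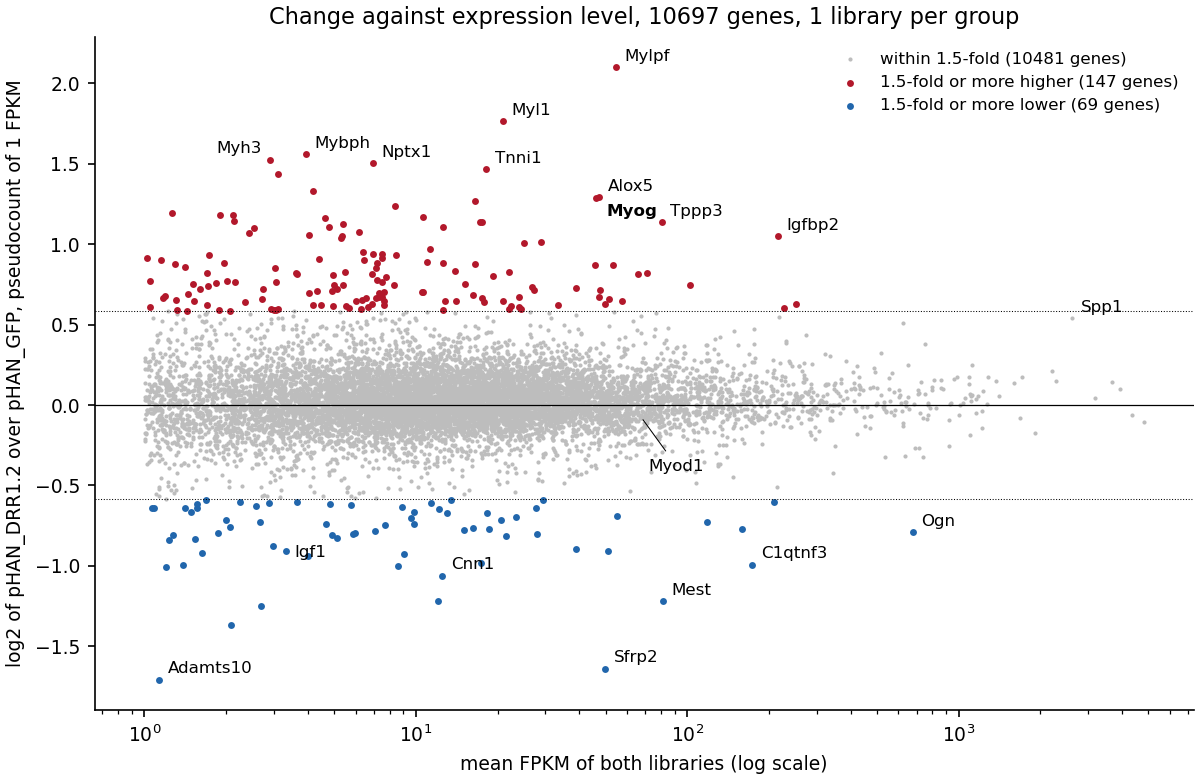
Log2 of pHAN_DRR1.2 over pHAN_GFP with a pseudocount of 1 FPKM (vertical axis) against the mean FPKM of both libraries on a log scale (horizontal axis), 1 point per gene. The 147 genes 1.5-fold or more higher are red and the 69 lower are blue; Mylpf lies highest at 2.10, Myog at 1.29 and Myod1 at -0.07 within the bulk of genes.

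Myog, the gene the design text names, stood at 65.8 FPKM in pHAN_DRR1.2 and 26.3 in pHAN_GFP (log2 change 1.29), a level in the first library equal to that of Myod1, which was at 65.6 and 68.9 (-0.07). Myf5, the myoblast factor of the same family, was at 10.7 against 8.75 (0.26), and Myf6 did not reach the level threshold. So in the GFP library Myod1 was the most abundant of these factors, and in the DRR library Myod1 and Myog stood level. Of 27 myogenic regulators measured, 2 were 1.5-fold or more higher and 1 lower, with a median of -0.07 beside 0.02 for all genes. The second of the higher ones was Vgll2, a muscle cofactor of TEAD proteins, at 6.77 against 2.47 FPKM (1.16). The lower one was Rbm24, an RNA-binding protein of muscle splicing, at 7.11 against 12.6 (-0.74). The partners of MyoD and MyoG were close to level: the E-protein genes Tcf3 (26.3 against 21.7 FPKM, 0.27), Tcf4 (18.2 against 19.2, -0.07) and Tcf12 (47.7 against 53.5, -0.16), and the MEF2 genes Mef2a (28.7 against 25.9, 0.15) and Mef2d (21.5 against 18.8, 0.18). Among 23 regulators of precursor cells none was 1.5-fold higher and 1 was lower, Sox8 at 9.28 against 15.1 FPKM (-0.65). Pax7, the satellite cell factor, was at 12.3 against 17.1 (-0.44), and the inhibitor genes Id1, Id2 and Id3, whose products sequester E-proteins, were at 0.40, 0.16 and 0.04.

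The sequences upstream of Myog and of the 5 contractile genes furthest above the GFP control, beside that of Sfrp2 at the other end, show which E-boxes these promoters hold. Each run is the 250 bases before the gene start in the RefSeq promoter table (build GRCm38.p6, 5′ to 3′ on the strand of the gene), in lower case with every CANNTG in capitals. Of the 2 starts tabled for Tnni1 the first is shown. These coordinates belong to that build and not to the mm9 build of the peaks and loci given elsewhere.
Myog (chr1:134289754-134290003, plus strand): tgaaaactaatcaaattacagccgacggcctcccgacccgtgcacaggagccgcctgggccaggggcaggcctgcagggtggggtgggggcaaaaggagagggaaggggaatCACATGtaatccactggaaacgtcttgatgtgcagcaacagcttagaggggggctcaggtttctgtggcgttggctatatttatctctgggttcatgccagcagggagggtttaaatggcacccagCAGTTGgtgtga
Mylpf (chr7:127211358-127211607, plus strand): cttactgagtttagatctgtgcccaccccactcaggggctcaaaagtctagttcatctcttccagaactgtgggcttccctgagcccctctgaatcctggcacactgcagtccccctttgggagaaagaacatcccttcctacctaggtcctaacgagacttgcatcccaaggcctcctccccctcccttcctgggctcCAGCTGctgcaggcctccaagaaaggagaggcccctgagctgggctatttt
Myl1 (chr1:66945057-66945306, minus strand): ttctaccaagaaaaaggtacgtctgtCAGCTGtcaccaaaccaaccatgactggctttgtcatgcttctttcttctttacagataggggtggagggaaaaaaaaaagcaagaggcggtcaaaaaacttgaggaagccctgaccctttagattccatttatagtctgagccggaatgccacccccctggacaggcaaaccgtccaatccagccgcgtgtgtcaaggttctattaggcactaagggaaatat
Mybph (chr1:134193198-134193447, plus strand): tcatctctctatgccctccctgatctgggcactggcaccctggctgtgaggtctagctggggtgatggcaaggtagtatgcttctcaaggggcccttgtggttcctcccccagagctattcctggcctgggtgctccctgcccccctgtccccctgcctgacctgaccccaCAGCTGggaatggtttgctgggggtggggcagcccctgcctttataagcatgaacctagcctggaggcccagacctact
Myh3 (chr11:67078050-67078299, plus strand): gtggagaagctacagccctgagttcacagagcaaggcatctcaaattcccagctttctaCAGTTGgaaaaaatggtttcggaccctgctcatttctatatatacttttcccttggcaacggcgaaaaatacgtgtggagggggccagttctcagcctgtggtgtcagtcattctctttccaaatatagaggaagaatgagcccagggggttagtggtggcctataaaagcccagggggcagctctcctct
Tnni1 (chr1:135799171-135799420, plus strand): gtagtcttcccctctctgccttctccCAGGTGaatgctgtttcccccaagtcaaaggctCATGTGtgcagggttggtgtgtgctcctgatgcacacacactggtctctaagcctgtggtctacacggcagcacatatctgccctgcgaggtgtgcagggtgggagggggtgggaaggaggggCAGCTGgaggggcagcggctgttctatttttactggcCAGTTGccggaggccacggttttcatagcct
Sfrp2 (chr3:83766071-83766320, plus strand): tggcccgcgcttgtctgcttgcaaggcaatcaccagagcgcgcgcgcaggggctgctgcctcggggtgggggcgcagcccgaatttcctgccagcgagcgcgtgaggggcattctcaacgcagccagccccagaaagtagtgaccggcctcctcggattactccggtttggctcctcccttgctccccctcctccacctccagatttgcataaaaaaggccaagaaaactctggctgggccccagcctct

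Counting -1 as the base before the start, the Myog run held CACATG at -138 and CAGTTG at -12, and also TCAGGTT, the core of the MEF3 site bound by proteins of the sine oculis family. The E-box variant CAGCTG, which reads the same on both strands, stood at -51 in Mylpf, -224 in Myl1, -68 in Tnni1 and -79 in Mybph. Of the 8 contractile genes past 2-fold 7 were in the table, and these 4 held CAGCTG, whereas Myh3 (CAGTTG at -191), Tnnc1 and Tnnc2 held other E-boxes. Sfrp2 held no CANNTG in its 250 bases. Of the 147 higher genes 97 matched the table by symbol, of the 69 lower genes 48, and of the genes tested 7724. Among them CAGCTG occurred before 35.1% of the higher genes, 14.6% of the lower genes and 14.0% of the genes tested. At 2-fold it occurred before 5 of the 25 higher genes in the table (20%), so the share was nearer that of all genes tested. CANNTG, of which CAGCTG is 1 form, occurred before 71.1%, 58.3% and 59.7%, TCAGGTT before 7.22%, 2.08% and 3.38%, and the consensus of MEF2 before 7.22%, 0% and 1.84%, all counted on both strands. Over all 27025 genes of the promoter table CAGCTG occurred before 14.7%, CANNTG before 69.3%, TCAGGTT before 4.07% and the MEF2 consensus before 3.42%. The MEF2 consensus was taken as C or T, then TA, 4 bases that are A or T, TA, and A or G. By this pattern the Myog run held no match, but its stretch ctatatttat differed from it in the last base alone. A match describes these letters in this window and no binding.

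Among contractile genes more members were past 1.5-fold higher than lower in each of 4 lists. The 4 lists of myosin light chains, myosin heavy chains, troponins and thin filament, Z-disc and M-line genes held 79 genes, of which 44 reached the level threshold, and of these 17 were 1.5-fold or more higher (38.6%, beside 1.37% of all genes) and 1 lower, with a median log2 change of 0.47. By q-value 14 of the 44 were called higher and 0 lower in the authors' deposited table. All 35 other members stayed under a mean of 1 FPKM. Raising the level threshold to a mean of 5 FPKM left 9 of the 17 higher genes, so about as many of them were weakly as strongly expressed. In bulk RNA, more cells that express a gene and more RNA per cell cannot be told apart.

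**Figure D2:**
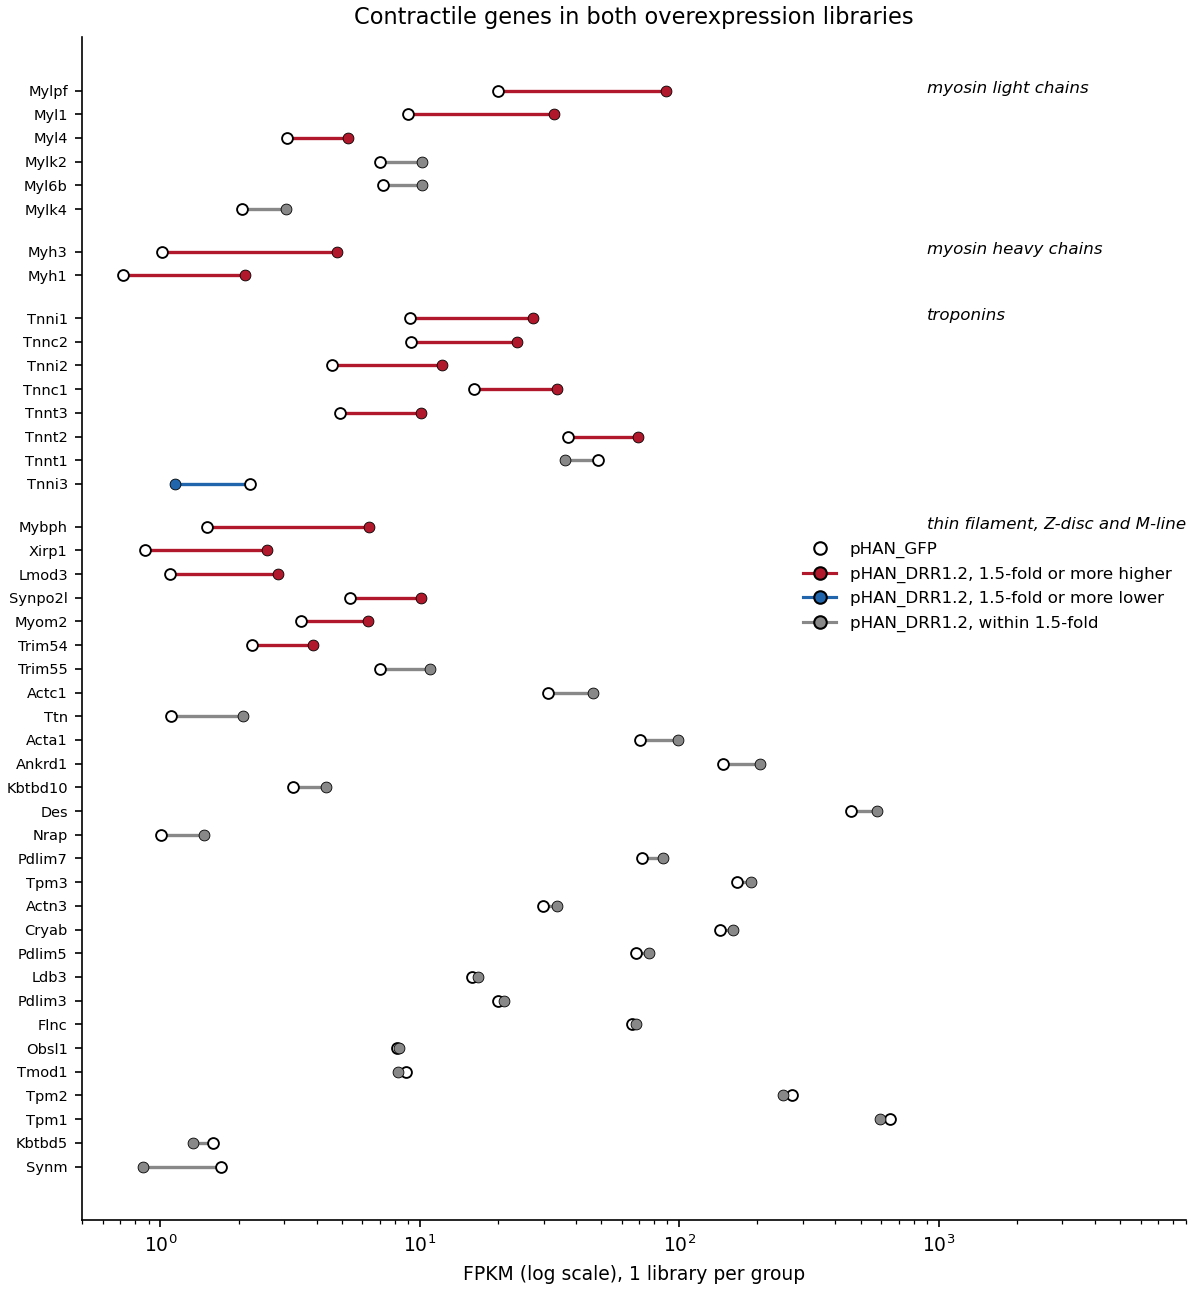
FPKM on a log scale of the 44 contractile genes measured, with an open point for pHAN_GFP and a filled point for pHAN_DRR1.2, grouped by list; red lines mark the 17 genes 1.5-fold or more higher and blue the 1 lower (Tnni3). The longest lines belong to Mylpf, Myl1, Mybph and Myh3, and abundant genes such as Tpm1 (596 against 651 FPKM) barely differed.

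In the thick filament, 3 of 6 light chain and light chain kinase genes and both heavy chain genes measured were past 1.5-fold. Mylpf, the regulatory light chain of fast muscle, stood at 89.2 against 20.1 FPKM (2.10), and Myl1, the essential light chain of fast muscle, at 32.9 against 8.97 (1.77). Myl4, the embryonic and atrial essential light chain, was at 5.30 against 3.09 (0.62). The light chain list summed to 151 FPKM in pHAN_DRR1.2 and 48.4 in pHAN_GFP. Myh3, the embryonic heavy chain made first in development, was at 4.79 against 1.01 FPKM (1.52), and Myh1, an adult fast heavy chain, at 2.11 against 0.718 (0.86). Myh1 was below 1 FPKM in pHAN_GFP and passed the level threshold only through pHAN_DRR1.2, so it could not but be higher. The other 7 heavy chain genes were below 1 FPKM in both libraries, with 4 higher and 3 lower in pHAN_DRR1.2. Both were called in the authors' deposited table, with q-values of 6.01e-13 for Myh3 and 0.000180 for Myh1.

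Troponin, the calcium switch of the thin filament, was represented by all 8 of its genes, of which 6 were higher, 1 lower and 1 within 1.5-fold. The inhibitory subunits Tnni1 of slow muscle (27.2 against 9.20 FPKM, 1.47) and Tnni2 of fast muscle (12.2 against 4.58, 1.24) were both past 2-fold. So were the calcium-binding subunits Tnnc2 of fast muscle (23.7 against 9.26, 1.26) and Tnnc1 of slow and cardiac muscle (33.7 against 16.2, 1.01). Slow and fast forms of these subunits thus stood higher together. The tropomyosin-binding subunits were mixed: Tnnt3 of fast muscle was at 10.1 against 4.91 FPKM (0.91) and Tnnt2 of cardiac and embryonic muscle at 69.2 against 37.3 (0.87), but Tnnt1 of slow muscle was at 36.1 against 48.6 (-0.42). Tnni3, the cardiac inhibitory subunit, was at 1.14 against 2.22 (-0.59), close to the level threshold.

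Where a gene had several coding sequences in the table, they did not always move together. One Tnnt2 form stood at 54.9 against 24.4 FPKM and another at 12.3 against 12.9. For Tnnt3 the values were 8.19 against 2.47 for one form and 1.93 against 2.44 for the other, and neither was called at q under 0.05 in the authors' deposited table. The Z-disc adaptor gene Sorbs2 had one at 3.56 against 0.518 and one at 5.01 against 4.67, so that its sum (8.57 against 5.19, 0.63) came from the first. How fragments were shared among the forms of a gene was the authors' estimate.

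Thin filament, Z-disc and M-line genes were less uniform, with 6 of 28 higher, 0 lower and a median of 0.28. Mybph, a myosin-binding protein whose deposited locus also covers another symbol, was at 6.38 against 1.51 FPKM (1.56). Xirp1, an actin-binding protein of cell junctions and sarcomere assembly, was at 2.57 against 0.873 (0.93), and Lmod3, a leiomodin that nucleates thin filaments, at 2.84 against 1.08 (0.88). Synpo2l, a Z-disc protein, was at 10.1 against 5.37 (0.80). The actin genes lay below the threshold: Actc1, the cardiac actin of immature muscle, was at 46.4 against 31.2 FPKM (0.56) and Acta1, skeletal actin, at 98.7 against 70.6 (0.48). Some abundant structural genes were near level, with the tropomyosin genes Tpm1 at 596 against 651 (-0.13) and Tpm2 at 252 against 272 (-0.11), and Flnc, the muscle filamin, at 68.2 against 65.4 (0.06).

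Genes of the muscle membrane and of energy supply followed with fewer members. Of 51 measured in 3 lists 10 were higher (19.6%, beside 1.37% of all genes) and 0 lower (beside 0.645%), with a median of 0.12. By q-value 5 of the 51 were called higher and 1 lower in the authors' deposited table. Atp2a1, Stac3 and Cox8b were among those not called. Of the 10 past 1.5-fold, 4 were below 1 FPKM in pHAN_GFP (Casq2, Hrc, Ckm and Cox8b). These 4 passed the level threshold only through pHAN_DRR1.2, where they could not but be higher. The same held for 2 of the 17 higher contractile genes (Myh1 and Xirp1) and for 21 of all 147 higher genes, and 12 of the 69 lower genes passed only through pHAN_GFP. Of calcium handling genes 5 of 20 were higher (25%). Casq2, a calcium buffer of the sarcoplasmic reticulum, stood at 3.01 against 0.772 FPKM (1.18), Hrc, another protein of that store, at 1.97 against 0.621 (0.88), and Atp2a1, the calcium pump of fast fibres, at 6.60 against 3.62 (0.72). Stac3, which links the membrane voltage sensor to calcium release, was at 8.22 against 4.82 (0.66). Atp2a2, the pump of slow fibres, was at 106 against 111 (-0.06). Of 14 genes of the neuromuscular synapse 1 was past 1.5-fold (7.14%), the acetylcholine receptor subunit gene Chrnd at 13.3 against 7.75 FPKM (0.71), with Chrna1 at 144 against 131 (0.13) and Chrng at 12.8 against 10.1 (0.32). Of 17 energy genes 4 were higher (23.5%), among them Ckm, the muscle creatine kinase, at 1.80 against 0.502 (0.90) and Gatm, which makes the precursor of creatine, at 48.9 against 29.2 (0.73). Fusion and repair genes had 3 of 25 higher (12%) and 0 lower. These were Tmem8c, myomaker, the membrane protein that myoblasts need to fuse, at 24.5 against 10.6 FPKM (1.14), Trim72, a repair protein, at 1.64 against 0.402 (0.91), and Gm7325 at 7.31 against 3.69 (0.83). Trim72 was below 1 FPKM in pHAN_GFP and passed the level threshold only through pHAN_DRR1.2, so it could not but be higher.

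**Figure D3:**
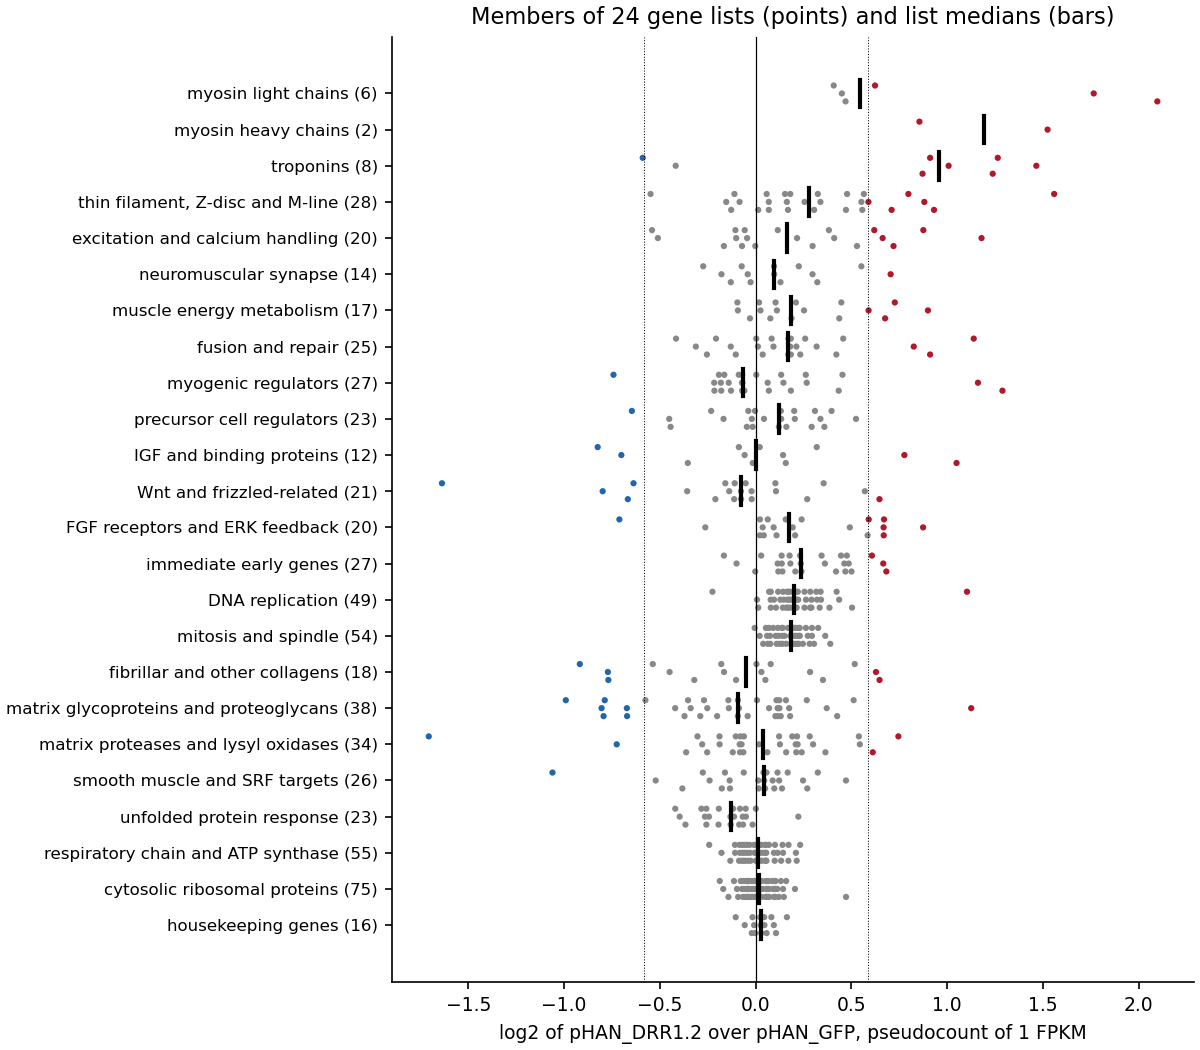
Log2 of pHAN_DRR1.2 over pHAN_GFP with a pseudocount of 1 FPKM for each measured member (points) of 24 gene lists, with the median as a black bar, the number measured in parentheses and dotted lines at 1.5-fold. Troponins (median 0.96) and myosin chains lie furthest right, matrix lists spread to both sides, and ribosomal, respiratory and housekeeping genes cluster near 0.

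Matrix genes lay on both sides of 0. Of 90 measured in 3 lists 11 were 1.5-fold or more lower (12.2%, beside 0.645% of all genes) and 5 higher (5.56%, beside 1.37%), with a median of -0.05. Of the 11, 2 were below 1 FPKM in pHAN_DRR1.2 (Adamts10 and Col14a1). These passed the level threshold only through pHAN_GFP and could not but be lower. Calls at q under 0.05 in the authors' deposited table were nearly even between lower and higher matrix genes. Ogn, Aspn, C1qtnf3 and Col12a1 were among those not called. The small leucine-rich proteoglycans, which bind collagen fibrils, included the most abundant lower gene, Ogn, at 499 against 862 FPKM (-0.79), with Prelp at 20.1 against 35.9 (-0.80), Aspn at 4.09 against 7.82 (-0.79) and Fmod at 5.53 against 8.73 (-0.58). Ogn and Aspn share a deposited locus. Another member of that family went the other way, Dcn, decorin, at 7.78 against 3.02 (1.13). Bgn, the abundant biglycan gene, stood at 625 against 754 (-0.27). C1qtnf3, a secreted C1q-like protein, was at 116 against 232 FPKM (-0.99). Of collagens, Col12a1 and Col14a1, which decorate fibrils, were at 117 against 201 (-0.77) and 0.818 against 2.43 (-0.92), and Col8a2 at 13.5 against 23.8 (-0.77). Col8a1 (17.3 against 10.7, 0.65) and Col18a1 (60.7 against 38.9, 0.63) were higher, and the main fibrillar genes Col1a2 (268 against 300, -0.16) and Col3a1 (397 against 450, -0.18) near level. Among proteases, Mmp2, a gelatinase, was at 88.8 against 147 FPKM (-0.73) and Plau, urokinase, at 129 against 76.4 (0.75). Adamts10, at 0.000703 against 2.27 (-1.71), had the lowest log2 change of the genes tested but lay near the level threshold, and its q in the authors' deposited table was 1.00. Fibroblast markers did not move one way: of 5 listed, Postn was at 13.8 against 22.6, Dcn as above, Col1a1 at 22.5 against 17.4, Col3a1 near level and Lum at 0.0292 against 0.0295, and their sum was 441 against 493 FPKM. The smooth muscle calponin gene Cnn1 was at 7.76 against 17.3 (-1.06), while the markers Acta2 (1791 against 2024) and Tagln (229 against 251) were near level, Myh11 was at 0.0513 against 0.0569 and 25 of 26 smooth muscle and SRF targets lay within 1.5-fold.

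Secreted regulators of growth and their feedback genes were also among the genes past 1.5-fold. Of 21 Wnt genes 4 were lower (19.0%, beside 0.645% of all genes) and 1 higher (4.76%, beside 1.37%). The lower ones were antagonists or modulators: Sfrp2, a secreted decoy of frizzled receptors, at 23.7 against 75.8 FPKM (-1.64), its relative Sfrp1 at 7.35 against 12.3 (-0.67), Dkk3 at 4.01 against 7.71 (-0.80) and Wisp2 at 0.886 against 1.93 (-0.64). Wisp2 was below 1 FPKM in pHAN_DRR1.2 and passed the level threshold only through pHAN_GFP, so it could not but be lower. The ligand gene Wnt10a was at 9.55 against 5.74 (0.65). In the insulin-like growth factor system 2 of 12 genes were higher (16.7%) and 2 lower (16.7%). Igfbp2, a binding protein, stood at 291 against 140 FPKM (1.05), whereas Igfbp3 was at 7.06 against 12.1 (-0.70) and Igfbp5, the most abundant of them, at 741 against 787 (-0.09). The ligand Igf1 was at 3.41 against 6.82 (-0.82) and Igf2, the autocrine ligand of differentiating C2C12 cells, at 10.4 against 13.6 (-0.35). Igf2bp2, a protein that binds Igf2 RNA, was at 9.38 against 5.06 (0.78).

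Targets and brakes of ERK signalling were higher in 5 of 20 cases (25%, beside 1.37% of all genes) with 1 lower (5%, beside 0.645%). Of the 20, 18 lay above 0 (90%, beside 55.6% of all genes). The phosphatase genes Dusp4 (21.7 against 11.4 FPKM, 0.87), Dusp5 (9.40 against 5.54, 0.67) and Dusp6 (29.6 against 18.2, 0.67), which act on MAP kinases, were past 1.5-fold with Phlda1 (58.1 against 36.1, 0.67) and the ETS factor gene Etv4 (15.3 against 9.82, 0.59). The receptor gene Fgfr4, typical of myoblasts, was lower at 15.4 against 25.8 (-0.71), and Fgfr1 was at 27.2 against 24.3 (0.16). Immediate early genes had 3 of 27 higher (11.1%) and 24 above 0 (88.9%), with a median of 0.24. The 3 were Klf4 at 20.3 against 12.2 FPKM (0.68), Klf2 at 8.99 against 5.29 (0.67) and Fosl1 at 29.2 against 18.8 (0.61). Notch pathway genes had 0 of 16 past 1.5-fold, and Dll1, a Notch ligand, was furthest from 0, at a log2 change of -0.54.

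Cell cycle genes stood slightly above 0 nearly without exception, by amounts inside the spread of all genes. Of 103 replication and mitosis genes 101 lay above 0 with a median of 0.19, while 1 was past 1.5-fold, the thymidylate synthase gene Tyms at 6.91 against 2.68 FPKM (1.10). Of all genes tested 5950 lay above 0 (55.6%). Among 19 genes of cell cycle exit, the inhibitor gene Cdkn1a (p21) was at 187 against 150 (0.32) and Cdkn1c (p57) at 2.17 against 3.09 (-0.37), and Gas6, a ligand of the TAM receptors, was past 1.5-fold at 11.4 against 23.5 (-0.98). Genes of the unfolded protein response leaned the other way, with 2 of 23 above 0, a median of -0.13 and 0 past 1.5-fold. None of 75 cytosolic ribosomal protein genes, 55 respiratory chain genes, 55 genes of RNA polymerase II, Mediator and cohesin, 34 genes of lipid synthesis or 16 housekeeping genes was past 1.5-fold, and their medians lay from 0.00 to 0.03. Mest was the imprinted growth gene past the threshold, at 48.7 against 114 FPKM (-1.22). The other 12 imprinted genes measured lay within 1.5-fold, among them Peg3 (44.5 against 49.3) and Peg10 (17.7 against 20.6).

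Outside the lists, the genes past 2-fold whose mean reached 5 FPKM formed no single kind. Nptx1, a secreted neuronal pentraxin, was at 10.7 against 3.13 FPKM, Alox5, a lipoxygenase that starts leukotriene synthesis, at 67.7 against 27.1 (1.29), and Tppp3, a tubulin-binding protein, at 111 against 50.1 (1.13). The keratin gene Krt80 was at 24.0 against 10.4 (1.14), Prrg4, a membrane protein with a carboxyglutamate domain, at 17.5 against 7.60 (1.11) and Sorcs2, a sorting receptor of the VPS10 family, at 38.9 against 18.8 (1.01). Dync1i1 (15.1 against 6.17, 1.17), Neurl1a (7.56 against 3.14, 1.05), Fam167a (7.47 against 3.13, 1.04) and the mast cell protease gene Mcpt8 (8.71 against 3.60, 1.08), which has close paralogs, complete the higher ones. St8sia2, which adds polysialic acid to neural cell adhesion molecule, was the lower one, at 6.83 against 17.2 (-1.22), while Ncam1, the gene of its substrate, was at 55.1 against 62.5 (-0.18). By level, the other genes past 1.5-fold in no list were led by Hspb1, a small heat shock protein, at 307 against 198 FPKM (0.63), and by Ly6a, the surface antigen Sca-1, at 274 against 180 (0.60), whose paralog Ly6c1 was at 59.4 against 35.8 (0.72), so that reads may be shared between them. Errfi1, an inhibitor of the EGF receptor, was at 70.2 against 44.5 (0.65). Lower were Car3, a carbonic anhydrase of slow muscle, at 165 against 251 (-0.60), Cd200 at 41.9 against 68.4 (-0.69) and Fmo1, a flavin monooxygenase, at 35.1 against 66.7 (-0.91). Next to the 2-fold threshold, Tnnc1 lay just inside at 1.01 and Ly6c2 just outside at 0.97, and on the lower side Abat lay just inside at 0.461 against 1.93 FPKM and Igdcc4 just outside at 5.39 against 11.8.

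Because the overexpressed RNA derives from the Myod1 locus, the neighbours of Myod1 and Myog were read separately. Within 500 kb of Myod1 (chromosome 7, 53631843 to 53634462, mm9) 9 other genes were tested, and 0 were past 1.5-fold, with log2 changes from -0.13 (Hps5, 7.40 against 8.20 FPKM) to 0.40 (Emp3, 263 against 199) and a median of 0.06. The nearest tested gene, Sergef at 64.1 kb, was at 3.74 against 4.00 (-0.08). Within 500 kb of Myog (chromosome 1, 136186580 to 136189125) 13 other genes were tested, and 2 were past 1.5-fold, in opposite directions: Mybph, 54.6 kb away, at 1.56 and Prelp, 369 kb away, at -0.80. The closest, Ppfia4 at 4.23 kb, was at 1.25 against 0.962 (0.20). Tmem183a at 53.5 kb, about as far from Myog as Mybph, was at 30.0 against 28.7 (0.06). The second proteoglycan gene of that stretch, Fmod, was at -0.58, just within the threshold, and Optc at -0.42.

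The binding context was read from peaks within 10 kb of the deposited locus. The peaks came from other cells than the RNA, and intervals are 95% Clopper-Pearson intervals that cover counting error only. A MyoD peak called in proliferating myoblasts lay near 101 of the 147 higher genes (68.7%, 60.5 to 76.1) and near 49 of the 69 lower genes (71.0%, 58.8 to 81.3), beside 45.4% of all genes tested. Of the 8 genes 2-fold lower 3 had one (37.5%, 8.52 to 75.5), so for these the share lay below that of all genes. The share near the higher genes was above that near all genes in each of 3 classes of locus length with near equal numbers of genes, at 58.9% against 34.7% for short loci, 76.5% against 38.7% for middle ones and 80.0% against 62.7% for long ones. For the lower genes the shares were 60.9%, 57.1% and 92.0%. It was 63.8% (53.3 to 73.5) for the 94 higher genes in no list. Read the other way, 0.787% of genes without a myoblast MyoD peak were past 1.5-fold higher, 1.55% of those with 1 peak, 3.09% with 2 to 4 peaks and 1.08% with 5 or more.

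For all deposited peaks of differentiated cells the shares lay closer to those of all genes. A MyoD peak in myotubes lay near 77.6% of the higher and 78.3% of the lower genes, beside 74.1% of all genes, and a MyoG peak near 74.1% and 71.0%, beside 70.2%, so these intervals (69.9 to 84.0 and 66.3 to 81.0 for the higher genes) held the share of all genes. With MyoG peaks at or above the median score alone, the shares were 61.2% and 53.6%, beside 47.5% of all genes, so the higher genes stood further from all genes than with the whole list. Where the mean reached 5 FPKM, a MyoG peak lay near 80.9% of the higher ones, beside 71.6% of all. A MyoD peak found in myotubes only lay near 62.6% and 71.0%, beside 64.3%. H3K4me1, the histone mark of enhancers, was found near almost every gene, and lay near 89.1% of the higher genes in myoblasts and 87.1% in myotubes, beside 95.8% and 94.7% of all genes, and near 94.2% of the lower genes at both stages. A domain found in myotubes only lay near 38.1% (30.2 to 46.5) of the higher and 63.8% (51.3 to 75.0) of the lower genes, beside 52% of all genes. The higher genes had shorter loci, with a median of 14.6 kb against 24.7 kb for all genes and 29.9 kb for the lower ones, and in each length class their share with such a domain was also below that of all genes, at 26.0% against 34.3%, 38.2% against 48.1% and 60.0% against 73.7%.

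**Figure D4:**
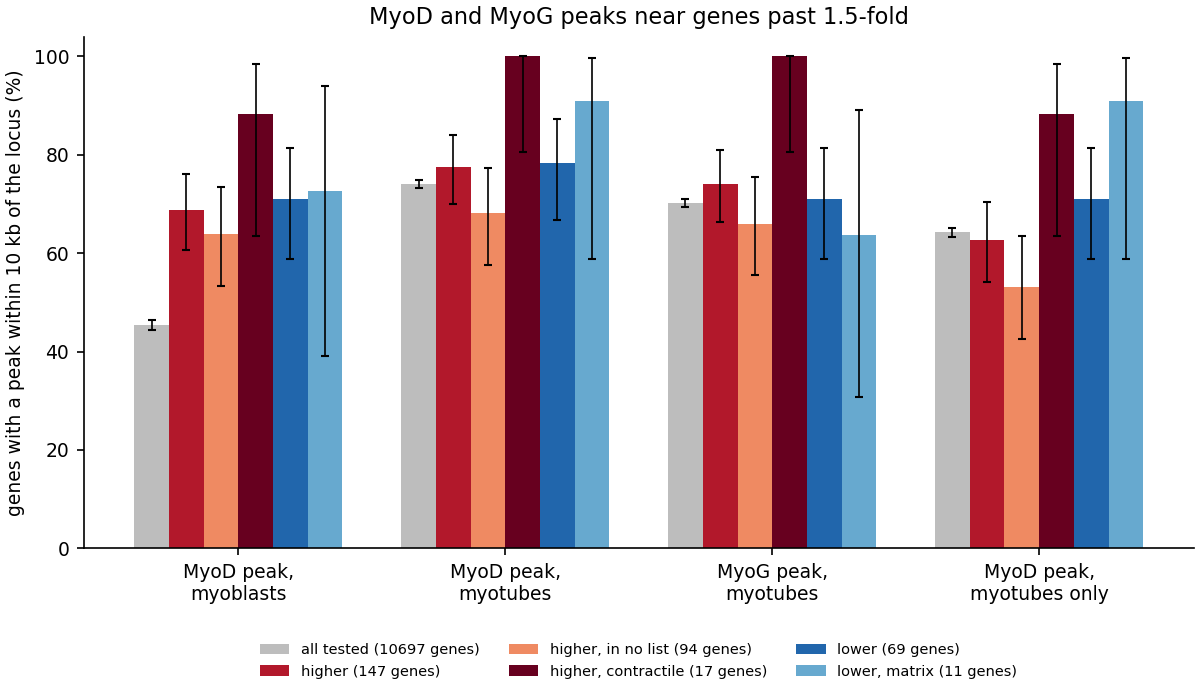
Percent of genes with a peak within 10 kb of the locus (vertical axis) for 4 kinds of peak and 6 sets of genes, with 95% Clopper-Pearson intervals. For MyoD peaks in myoblasts the bars of the higher (68.7%) and lower (71.0%) genes stand above all genes (45.4%); for the myotube lists they overlap it, except that all 17 higher contractile genes had a MyoD and a MyoG peak.

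All 17 higher contractile genes had a MyoD and a MyoG peak of myotubes nearby (100%, 80.5 to 100), with a median of 5 of each, and 15 had a MyoD peak in myoblasts. Of the 27 other contractile genes measured, 26 had a MyoD and 26 a MyoG peak of myotubes (96.3%, 81.0 to 99.9), with a median of 4 of each, and 23 a myoblast peak. Contractile genes that were 1.5-fold higher and those that were not thus both had such peaks nearly throughout. Myog itself had 2 MyoD peaks in myoblasts, 9 MyoD peaks and 5 MyoG peaks in myotubes. The MyoD peak over its start (chromosome 1, 136185805 to 136187937) had an authors' score of 3100, above 98.6% of that list. Mylpf had no MyoD peak in myoblasts and 4 of each factor in myotubes, the strongest 0.727 kb from its locus with a MyoD score of 1564. Myl1 had no H3K4me1 domain in myoblasts and 8 in myotubes, beside 9 MyoD and 8 MyoG peaks. Sfrp2 had 1 MyoG peak and no MyoD peak, and Mest 3 MyoD and 2 MyoG peaks of myotubes and none in myoblasts, in a deposited locus that also covers other symbols. Near Myod1 there were 4 MyoD and 2 MyoG peaks in myotubes and 0 MyoD peaks in myoblasts. Of these MyoD peaks the one with the highest score (1673) lay 9.96 kb from the locus. Another lay 4.80 kb from it (chromosome 7, 53626192 to 53627045, score 499).

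The companion RNAi experiment has its own controls and its own table, so the values are set side by side and levels are not compared across. Of the genes tested here 10396 were tested there, and at 1.5-fold 468 of them (4.5%) were higher and 359 (3.45%) lower in DRRi than in GFPi. Of the 147 genes higher with overexpression 110 were tested in both. Of these 26 (23.6%, or 7.24% of the genes lower in DRRi) were lower in DRRi and 21 (19.1%, or 4.49% of the genes higher in DRRi) were higher there too. Of the 69 lower genes 48 were tested in both: 18 (37.5%, or 5.01% of the genes lower in DRRi) were lower in DRRi as well and 8 (16.7%, or 1.71%) higher. At 1.5-fold the 2 experiments were not mirror images: over the 110 higher genes the median DRRi change was 0.03, and over the 48 lower genes -0.20. The balance depended on the threshold. At 2-fold in each experiment, 10 genes differed in opposite directions and 2 in the same direction. Of 24 higher genes 8 (33.3%) were lower in DRRi and 1 (4.17%) higher, beside 80 lower and 88 higher among all 10396 genes. In the authors' deposited tables, by q-value, 8 were opposite and 5 alike, where 66 of the 10396 genes were called higher in DRRi and 59 lower.

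The opposite and parallel genes are given by kind. The 26 opposite genes included 9 contractile and 3 membrane or metabolism genes, and 24 of them had a MyoG peak. The 21 genes higher in both included 1 contractile gene, Myl4 (1.97 against 0.965 FPKM in DRRi and GFPi, 0.59), and 12 had a MyoG peak, beside 70.2% of all genes tested. Among the lower genes the order was the other way, with a MyoG peak near 4 of the 8 opposite and 13 of the 18 parallel ones. Of the 17 higher contractile genes 12 were tested in both, and 10 of these were below 0 in DRRi, with a median of -1.09. Of the other 27 contractile genes 21 were tested in both, and 15 were below 0, with a median of -0.21. Of all 10396 genes tested in both, 4854 were below 0 in DRRi, with a median of 0.02. Myl1 stood at 0.556 against 2.33 FPKM there, Tnni1 at 0.887 against 3.21 and Trim54, a sarcomeric ubiquitin ligase at 3.88 against 2.25 here (0.59), at 0.707 against 5.61 (-1.95). Of the 12 higher contractile genes the 2 above 0 were Myl4 and Tnnc1 (8.77 against 8.56, 0.03). Among the 18 genes lower in both experiments were Mest (43.4 against 119 FPKM in DRRi and GFPi, -1.43), Rbm24 (1.66 against 7.25, -1.63), Igfbp3 (4.38 against 15.1, -1.58), Fgfr4 (9.37 against 16.2, -0.73), Ogn (46.5 against 72.8, -0.64) and Car3 (log2 change -1.28). Lower here and higher there were Sfrp2, Sfrp1 (7.94 against 3.81, 0.89), Cnn1 (2.89 against 1.41, 0.69), Gas6 (12.3 against 5.59, 1.02), Postn (5.33 against 1.43, 1.38), Akr1b3, Cacng7 and Adamts10. Adamts10 was nearly absent from one library of each pair, at 0.000703 FPKM in pHAN_DRR1.2 and 0.000709 in GFPi. Igfbp2 and Alox5, both past 2-fold here, were at 89.8 against 106 (-0.24) and 14.9 against 13.1 (0.18) in the RNAi pair.

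**Figure D5:**
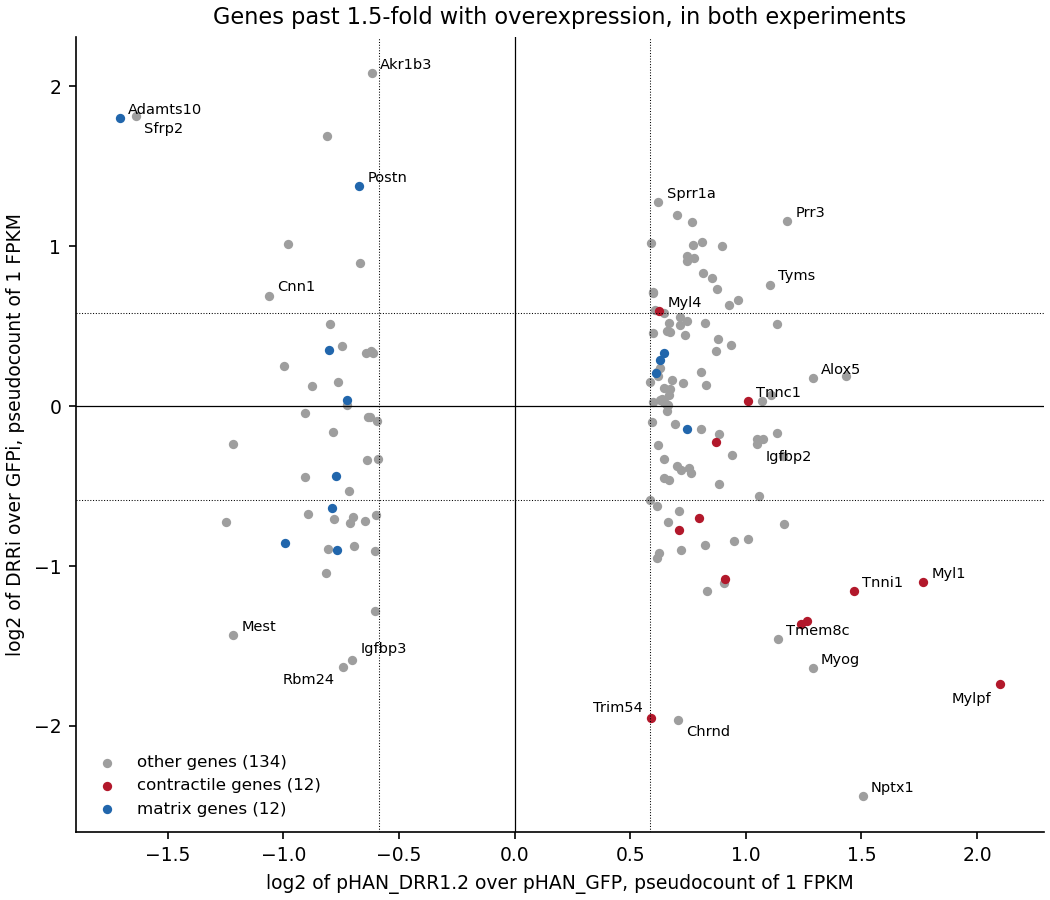
Log2 change in DRRi over GFPi (vertical axis) against log2 change in pHAN_DRR1.2 over pHAN_GFP (horizontal axis), both with a pseudocount of 1 FPKM, for the 158 genes past 1.5-fold with overexpression and tested in both experiments. The 12 contractile genes (red), all 1.5-fold higher with overexpression, lie mostly at the lower right, with Mylpf at 2.10 and -1.74; matrix genes (blue) lie on both sides, and the remaining genes fill all 4 corners.

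Rpl35 and Lars2 were kept out of every count and median. Rpl35, which encodes a large-subunit ribosomal protein, stood at 659 FPKM in pHAN_DRR1.2 and 2.66 in pHAN_GFP (7.50), while the 75 other ribosomal protein genes lay between -0.19 and 0.47, and its deposited locus also covers another symbol. The same contrast was seen in the RNAi table, at 976 FPKM in DRRi and 3.55 in GFPi, so the GFP library was the low one in both. Lars2, the mitochondrial leucyl-tRNA synthetase, stood at 52.4 against 195 FPKM (-1.88) here and at 44.9 against 63.6 (-0.49) in the RNAi pair.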

How the data were processed

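RNA-seq values were FPKM per coding sequence, deposited as a table of 24333 coding sequences. The submitters' processing notes list TopHat, SICER, bedtools and mm9, with no versions, and how libraries were scaled against each other is not given in the sources used here. The authors' p-values and q-values, deposited in the same table, come from 1 library per condition. Per the file headers MACS made the MyoD and MyoG peak lists, and each deposited peak carries a score of the authors. The H3K4me1 domains carry a ratio of ChIP to control reads by the authors, which was not used to filter. Whether peaks were called on pooled runs is not given in the sources used here.

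From these values FPKM was summed per symbol, genes whose mean reached 1 FPKM were kept, and log2 ratios were taken with a pseudocount of 1. With 1 library a side no p-value was computed. A gene had a peak where one lay within 10 kb of the locus of its most abundant coding sequence. The overexpression and RNAi tables were normalized separately and compared by ratio only. The computation used Python 3.11.15, numpy 2.4.6, pandas 2.3.3, scipy 1.17.1 and matplotlib 3.10.9 and was tested on simulated data. The members, the 35 lists and the thresholds were chosen with earlier results of these data known. Genes named were Myod1, Myog, Myf5 and Myf6, genes past 2-fold whose mean reached 5 FPKM, other genes past 2-fold in a list, up to 4 members of each list past 1.5-fold or else those furthest from 0, the 10 most abundant genes past 1.5-fold in no list, and neighbours within 500 kb of Myod1 or Myog. Other genes named were chosen after their values were seen. One gene that the rule names is not reported here. Alternatives covered the pseudocount, the level filter, the coding sequence used, scaling, peak distance and score, and the authors' q-value.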

Additional observations from a re-analysis of the deposited data

How the results depend on the processing

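With a pseudocount of 0.1 FPKM, 66 genes were higher and 29 lower at 2-fold, and 229 and 119 at 1.5-fold. With a pseudocount of 5 FPKM these were 8 and 2, and 53 and 22, with 10 contractile genes higher and 6 matrix genes lower. At a mean of 5 FPKM or more, 20 and 4 genes were past 2-fold and 89 and 39 past 1.5-fold, with 9 contractile genes higher. Taking the most abundant coding sequence alone gave 28 lower genes at 2-fold and 112 at 1.5-fold. In place of 2-fold, the q-value of the authors' deposited table called 109 higher and 62 lower. An alternative chosen after seeing the data, which kept members whose most abundant coding sequence had a mean of 5 FPKM or more, also left 9 contractile genes. Median centring, upper quartile scaling, no level filter and leaving out coding sequences of failed or low-data status (the last also chosen after seeing the data) kept these counts within 1.5 times. The 216 genes past 1.5-fold kept their direction under each of 5 settings. A change of pseudocount cannot reverse a direction, and a scaling could do so only with a shift of about 1.5-fold. Kept direction under those settings is therefore no check, and only the choice of coding sequence could readily have reversed a gene. Of the 216, 141 fell short of 1.5-fold with a pseudocount of 5, 24 with upper quartile scaling, 14 with median centring, 12 with the most abundant coding sequence and 0 with a pseudocount of 0.1.

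The share with a MyoD peak in myoblasts was 84.4% of higher and 87.0% of lower genes within 50 kb (71.5% of all genes), 47.6% and 56.5% over the locus itself (32.3%), and 48.3% and 49.3% with peaks at or above the median score (28.2%). It was 78.7% of higher genes at a mean of 5 FPKM or more (45.8%). At 3 of the 8 genes 2-fold lower (37.5%) it fell below the 45.4% of all genes. For MyoG peaks the shares were 86.4% and 88.4% within 50 kb (88.9% of all genes), 59.2% and 50.7% over the locus (51.0%), and 61.2% and 53.6% at or above the median score (47.5%). Against the RNAi experiment 34 genes were past 1.5-fold in opposite directions and 39 in the same direction. These were 10 and 2 at 2-fold, 8 and 5 by the q-values of the authors' deposited tables, and 63 and 61 with a pseudocount of 0.1. The cause of these shifts was not tested.

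No paired analysis was possible because each group held 1 library, and for the same reason none could be left out. Read depth is unknown, so the precision of low FPKM values cannot be stated, and genes at a mean of 1 to 2 FPKM were past 1.5-fold in 5.46% of cases beside 1.44% above 100 FPKM.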

Other observations

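Genes best known from neurons stood higher in the pHAN_DRR1.2 library. These 7 genes were chosen after their values were seen, so their shared direction is no support for a group effect. Tubb3, a neuronal beta-tubulin, was at 91.0 against 51.0 FPKM (log2 change 0.82), Stmn2, a stathmin that binds tubulin, at 63.3 against 39.7 (0.66), and Gap43, a growth cone protein, at 14.5 against 7.40 (0.89). The neurofilament genes Nefl and Nefm were at 24.8 against 13.8 (0.80) and 9.49 against 5.82 (0.62). L1cam, an axonal adhesion molecule, was at 6.55 against 3.32 (0.81) and Mtap2, a dendritic microtubule protein, at 1.82 against 0.796 (0.65). Mtap2 passed the level threshold only through pHAN_DRR1.2. One Mtap2 form stood at 0.937 against 6.7e-05 FPKM and another at 0.887 against 0.796. A MyoG peak lay near 2 of the 7, beside 70.2% of all genes tested. In DRRi against GFPi 2 of the 7 lay above 0, Tubb3 (0.52) and L1cam (0.21). The neuronal markers Rbfox3 and Snap25 were listed at 0 in both overexpression libraries.

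The secreted phosphoprotein gene Spp1 (osteopontin) was the most abundant of the bone markers measured, at 3103 FPKM in pHAN_DRR1.2 and 2135 in pHAN_GFP (0.54), below 1.5-fold. Of the p53 targets Pmaip1 (Noxa) was the 1 of 28 past that threshold, at 9.29 against 5.36 FPKM. Bglap2, an osteocalcin gene with close paralogs, was at 1.59 against 0.517. It passed the level threshold only through pHAN_DRR1.2, so it could not but be higher. It was not called at q under 0.05 in the authors' deposited table.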
